A study of Homo sapiens with 120 samples.

Results

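The heat shock chaperones described here are 10 genes, taken by gene name from a table of 62703 genes: HSPA1A, HSPA1B, HSPA8, DNAJB1, HSPH1, HSP90AA1, HSPD1, HSPE1, HSPB1 and BAG3. All 10 of them passed the filter on low counts in both parts of the study. Chaperones bind unfolded stretches of other proteins and keep them from aggregating until they fold. When unfolded protein builds up, the transcription factor HSF1 forms trimers, binds heat shock elements in promoters and raises transcription of many of these genes. In embryonic stem cells several of them are known to be abundant without any heat shock. HSPA1A and HSPA1B encode near-identical inducible Hsp70 proteins, and HSPA8 encodes the Hsp70 that is present in unstressed cells. DNAJB1 encodes an Hsp40 that delivers clients to Hsp70 and stimulates its ATPase, while HSPH1, an Hsp110, and BAG3 act as nucleotide exchange factors for Hsp70. HSP90AA1 encodes the inducible form of cytosolic Hsp90. HSPD1 (Hsp60) and HSPE1 (Hsp10) form the folding chamber of the mitochondrial matrix. HSPB1 (Hsp27) is a small heat shock protein that holds unfolded clients, and BAG3 also links Hsp70 and small heat shock proteins to selective autophagy.

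The libraries were made from polyA RNA of H1 cells, a widely used line derived from a human embryo, and every group held 2 libraries, marked a and b. One arm compared unedited cells (WT), a lncPRESS1 knockout (KO) and an edited line named ΔATG at day 0 and on days 1 to 5 of 3 differentiation protocols, giving 96 libraries in 48 groups. The protocols were BMP4, a growth factor that directs cells towards mesoderm, a neural induction kit with inhibition of SMAD signalling (SMADi), and a definitive endoderm kit (Endo). For SMADi and Endo the labels describe single cells plated in ROCK inhibitor Y-27632 on day 0. The other arm, 24 libraries in 12 groups, carried an empty vector or overexpression constructs labelled lncPRESS1, lncPRESS1DATG and lncSIRP, each at an early, middle and late stage. The labels do not say how many clones stand behind each line, which part of lncPRESS1 was removed, what lncSIRP is or how many days a stage took. They also do not say that a and b were separate cultures, so the p-values below measure the spread between these libraries, which may be technical.

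Heat shock elements are runs of the 5-base unit NGAAN in alternating orientation. The 250 bases before each RefSeq start (build GRCh38.p14) were searched on both strands for facing units, GAANNTTC or TTCNNGAA, and all 10 genes were matched to a promoter entry. At least 1 facing pair lay in the promoters of 7 of the 10 genes, or in 7 of their 14 promoter entries, against 11.6% of 35116 entries in the same table. At least 3 facing units in a row lay in the promoters of HSPA8, HSP90AA1 and HSPD1, against 0.441% of all entries. The sites are shown because this element is what the heat shock genes are known to share. Their part in the day 1 levels below was not tested. Capitals mark the GAA and TTC cores. DNAJB1 and HSP90AA1 each had another site nearer the start, with 2 facing units, that is not printed. The printed sites lie at chr6:31815433-31815448 and chr6:31827629-31827644 (both plus strand), chr11:123062350-123062370 and chr11:123062175-123062195, chr19:14518463-14518478, chr14:102087116-102087136 and chr2:197500064-197500089 (all minus strand), and chr7:76302487-76302502 (plus strand).
HSPA1A: cctgGAAtaTTCccga
HSPA1B: cctgGAAtaTTCccga
HSPA8, farther site: gcttGAAagTTCcaGAAcgct
HSPA8, nearer site: ccccTTCtgGAAggTTCtaag
DNAJB1: ggcgGAAggTTCtgga
HSP90AA1: gttcTTCcgGAAggTTCggga
HSPD1: cattTTCtgGAAagTTCtgGAAccga
HSPB1: gagaGAAggTTCcaga
The printed HSPA1A and HSPA1B sites were the same 16 letters, 106 and 105 bases before their starts. HSPD1 had the longest run, 4 facing units. HSPD1 and HSPE1 lie head to head on chromosome 2. Of the 2 RefSeq starts of HSPD1, the one 105 bases from the HSPE1 start had no facing pair before it, and the printed site lies before the other, 539 bases from the HSPE1 start. For HSPH1, HSPE1 and BAG3 these letters were not found in the window, which says nothing about whether HSF1 binds there.

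Total estimated counts were 38298440 to 71220396 per library in the differentiation arm and 40113672 to 65466258 in the overexpression arm. Levels are given in CPM, counts scaled to the same library total in every library, and differences as log2 fold changes with standard errors from edgeR's quasi-likelihood test, where 1 is a doubling. A gene is said to be higher or lower, to rise or to fall, when its Benjamini-Hochberg adjusted p over all tested genes was under 0.05. At day 0 the LNCPRESS1 gene itself stood at 21.4 and 40.6 CPM in WT, 13.2 and 5.6 in KO and 53.1 and 35.2 in ΔATG. The gene was below 2 CPM in all 3 lines on every day of Endo. Sums of neuroectoderm, mesoderm and endoderm markers were at most 17.5, 1.30 and 2.83 CPM in WT at day 0. Neuroectoderm markers reached 470 CPM in WT SMADi, mesoderm markers 381 CPM in WT BMP4 and endoderm markers 13760 CPM in WT Endo. Of these only the endoderm sum was highest in its own protocol, since in WT Endo the neuroectoderm sum reached 812 and the mesoderm sum 2521 CPM. SOX17 and FOXA2, which define endoderm, were at 0 in both WT libraries on SMADi day 5.

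3 sets of libraries stood apart and touch results below. At day 0 the mitochondrial share of counts was 4.70% to 5.81% in the a libraries and 8.56% to 9.35% in the b libraries, and 9 of the 10 chaperone genes were higher in WT a than in WT b, by up to 2.18-fold, but 3 in KO and 4 in ΔATG. In the overexpression arm, the early libraries labelled lncSIRP had 185 and 133 CPM of LNCPRESS1, while those labelled lncPRESS1 had 32.3 and 53.8 and the vector libraries 29 and 30.2, which goes against the labels. The middle libraries labelled lncPRESS1 and lncSIRP had lost stem cell markers, with a POU5F1, SOX2 and NANOG sum of 275 to 338 CPM against 2843 to 2951 CPM with the vector.

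In undifferentiated WT cells the chaperones differed widely in abundance. Scaled to merged exon length, mean CPM per kilobase was 294 for HSPD1, 232 for HSP90AA1, 149 for HSPA8, 109 for HSPE1 and 80.0 for HSPB1. The other genes were lower on the same scale, at 20.9 for HSPA1B, 20.4 for HSPA1A, 14.5 for DNAJB1, 12.1 for HSPH1 and 7.29 for BAG3. The ranges of the 2 libraries overlapped for HSPD1 and HSP90AA1, HSPA8 and HSPE1, and HSPA1B and HSPA1A, neighbours in this order. They also overlapped for HSPA1A and DNAJB1, and for DNAJB1 and HSPH1. All genes were measured in the same 2 libraries, so this overlap does not show equal levels. The order also depends on the merged exon lengths, which may not match the gene models behind the counts. Over all 96 libraries of the differentiation arm, the widest ranges were those of BAG3, from 11.4 to 104 CPM, and HSPA8, from 379 to 3062 CPM. The narrowest was that of DNAJB1, from 43.6 to 101 CPM. HSPA1A made up 32.6% to 63.8% of the counts of HSPA1A and HSPA1B together, and their separate values are uncertain, since how the reads of this near-identical pair were shared out is not given in the sources used here.

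For 7 of the 10 genes the highest WT library of all was on SMADi day 1. HSPA1A and HSPB1 were highest on Endo day 3 and BAG3 on Endo day 2. For SMADi and Endo the labels describe single cells plated in ROCK inhibitor, whose part in the day 1 levels was not tested. HSPA8, the main cytosolic Hsp70, stood at 3062 and 2881 CPM on SMADi day 1 against 887 and 558 at day 0, a log2 difference of 2.04 ± 0.13 (adjusted p = 1.5e-19). HSPH1, its exchange factor, stood at 322 and 316 CPM against 122 and 81.0 (1.65 ± 0.12). HSPA1B rose from 72.2 and 33.0 to 161 and 170 CPM (1.65 ± 0.16). The 2 day 1 libraries were close together and above both day 0 libraries for each of these genes. The 2 day 0 libraries lay further apart, while the standard errors and p-values use a spread pooled over all groups of the arm. None of the alternative fits was run on the day 1 comparisons. HSP90AA1 reached 2817 and 2822 CPM from 1382 and 1048 (1.21 ± 0.10). HSPA1A reached 110 and 112 CPM (1.13 ± 0.17), BAG3 37.2 and 39.7 CPM (0.94 ± 0.10) and DNAJB1 97.5 and 99.9 CPM (0.89 ± 0.088). The mitochondrial pair moved less, HSPE1 by 0.49 ± 0.094 and HSPD1 by 0.46 ± 0.078. HSPB1, at 126 and 132 CPM against 129 and 133, was the one gene that did not pass the test.

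In all, 9 of the 10 genes were called on SMADi day 1, each of them higher and without overlap between the groups, where 43.5% of all 25821 tested genes were called in either direction and 21.7% as higher. The median log2 difference of the 10 genes was 1.03 against -0.05 over all tested genes. On Endo day 1, 7 genes were higher and 0 lower (46.2% of all genes called), led by HSPA8 at 1935 and 1510 CPM and HSPA1B at 146 and 104 CPM, each with a log2 difference of 1.25. The a library of Endo day 1 was above the b library for 10 of 10 genes, by 1.05 to 1.54 times. On BMP4 day 1, 5 genes were higher and 0 lower (27.1% of all genes called): HSPA1B, BAG3, HSPA8, HSPH1 and DNAJB1, by 0.71, 0.63, 0.58, 0.46 and 0.32. The 5 called genes on BMP4 day 1 and the 7 on Endo day 1 did not overlap day 0 either, but by small margins under BMP4, as for DNAJB1 with 67.2 and 65.7 CPM against 62.1 and 44.0. These 3 comparisons share the day 0 libraries. How often all tested genes were without overlap was not counted, so the lack of overlap adds no support beyond the calls. HSPA8 was higher on SMADi than on BMP4 over days 1 to 5 by 0.74 ± 0.054.

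**Figure D1:**
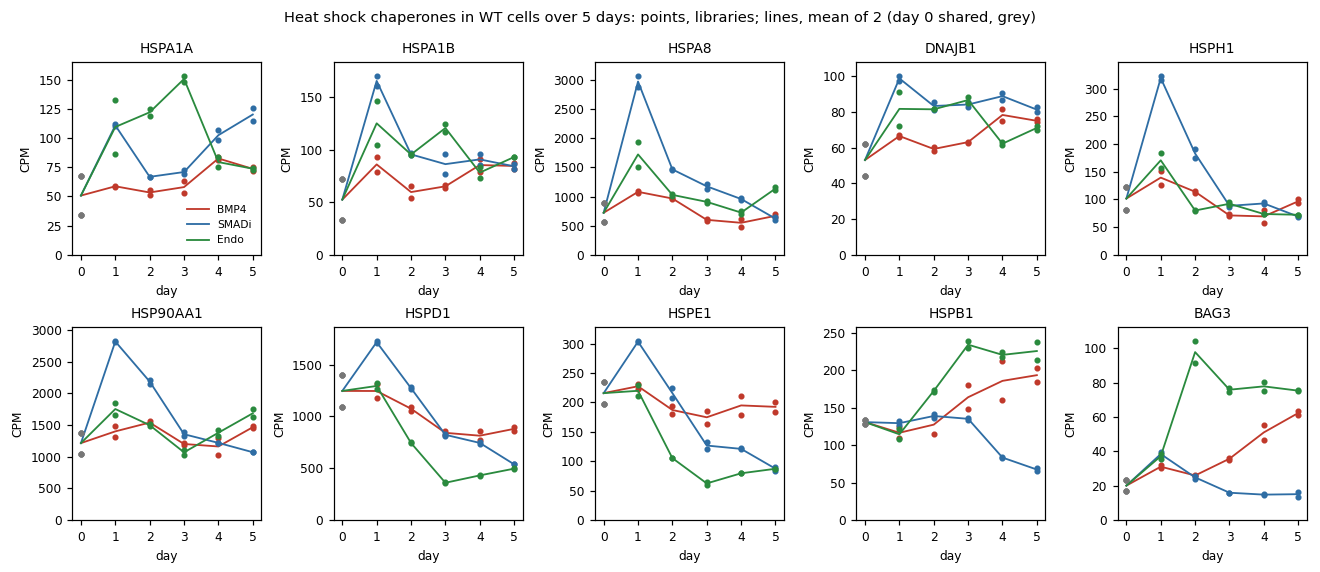
Level of each of the 10 chaperone genes in WT cells (CPM, linear axis from 0) against day, with points for libraries and lines through the mean of 2 libraries for BMP4 (red), SMADi (blue) and Endo (green). HSPA8, HSPH1 and HSP90AA1 peak on SMADi day 1, BAG3 and HSPB1 climb under BMP4 and Endo and fall under SMADi, and HSPD1 and HSPE1 fall furthest under Endo.

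The day 1 rise was short for most genes. From day 1 to day 2 of SMADi, 9 genes fell and 0 rose (28.7% of all genes called, 14% as lower), HSPA8 by 1.02 and HSPH1 by 0.80 on the log2 scale. On SMADi day 5, HSPA8 was at 601 and 641 CPM and HSPH1 at 68.8 and 69.3 CPM, the first within and the second below its day 0 values. HSPA1A took another course: after 66.6 and 66.9 CPM on SMADi day 2 it climbed to 106 and 98.4 on day 4 and 126 and 114 on day 5, above both day 0 values of 67.1 and 34.4. Under Endo, HSPA1A was highest on day 3, at 153 and 148 CPM, and back to 83.9 and 74.9 on day 4, a fall of 0.92 ± 0.16. HSPA1B and DNAJB1 fell with it between those days, by 0.62 and 0.48.

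At day 5 against day 0, SMADi had 3 higher and 5 lower genes (51.5% of all genes called), BMP4 6 higher and 1 lower (41.9%) and Endo 7 higher and 3 lower (62.4%), shares of the same order as the background. The inducible HSPA1A, HSPA1B and DNAJB1 were higher at day 5 under all 3 protocols, by 0.54 to 1.24 for HSPA1A, 0.68 to 0.82 for HSPA1B and 0.42 to 0.61 for DNAJB1. These differences lean on the lower of the unequal day 0 libraries. Without WT day 0 library b, HSPA1A was 0.13 (adjusted p = 0.582) under BMP4 and 0.14 (adjusted p = 0.516) under Endo, and HSPA1B was 0.23 (adjusted p = 0.236) under BMP4 and 0.22 (adjusted p = 0.229) under SMADi. HSP90AA1 under BMP4 and DNAJB1 under Endo also missed the threshold without that library. The BMP4 count then turned to 3 higher and 4 lower genes, with HSPA8 (-0.40), HSPH1 (-0.34) and HSPE1 (-0.29) lower, and under SMADi HSPA8 (-0.51) and HSP90AA1 (-0.37) became lower. Without WT day 0 library a, the lower HSPH1 of SMADi and Endo (-0.23 and -0.16) and the lower BAG3 of SMADi (-0.17) missed it.

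The mitochondrial pair HSPD1 and HSPE1 went down together, and furthest under Endo. HSPD1 went from 1404 and 1089 CPM at day 0 to 739 and 749 on Endo day 2 and 356 and 363 on day 3, a log2 difference of -1.79 ± 0.08. HSPE1 went from 234 and 197 to 59.7 and 64.7 CPM on day 3, also -1.79. Both then regained part of the loss on day 4, HSPD1 by 0.26 and HSPE1 by 0.35. By SMADi day 5 the pair was lower by 1.21 and 1.31, at 539 and 536 CPM for HSPD1. Under BMP4 HSPD1 was lower at day 5, by 0.50, and HSPE1, at 184 and 200 CPM, did not pass the test (-0.17), but did with the letter as a block (-0.17, adjusted p = 0.0372). HSPA9, the mitochondrial Hsp70, was lower at day 5 as well, by 1.29 under SMADi and 1.19 under Endo.

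BAG3 and HSPB1 had the largest day 5 differences of SMADi from the other 2 protocols. Between BMP4 and Endo at day 5 it was HSPE1, higher under BMP4 by 1.14, followed by HSPD1 (0.83) and HSPA8 (-0.76). Under Endo, BAG3 went from 23.1 and 17.0 CPM at day 0 to 38.5 and 35.8 on day 1 and 91.5 and 104 on day 2, a log2 difference from day 0 of 2.29 ± 0.10, and lay between 74.6 and 80.4 CPM on the 3 days after. Under BMP4 it climbed later, from 26.5 and 25.4 CPM on day 2 to 55.4 and 46.6 on day 4 and 63.3 and 61.3 on day 5. Under SMADi it fell after day 1, to 15.2 and 14.4 CPM on day 4. At day 5 no SMADi library reached any BMP4 or Endo library, and BAG3 was higher under BMP4 than under SMADi by 2.05 ± 0.10 and lower under SMADi than under Endo by 2.32. HSPB1 was lowest under SMADi too. Its day 5 values were 69.1 and 65.8 CPM under SMADi, 184 and 203 under BMP4 and 214 and 238 under Endo, and the difference of BMP4 from SMADi was 1.52 ± 0.13. The BMP4 and Endo values of HSPB1 at day 5 did not differ by the test. In bulk RNA, fewer cells of a type and less RNA per cell cannot be told apart, here and below.

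Other proteostasis genes were counted by list, to be read against 43.5% of all genes called on SMADi day 1, 51.5% on SMADi day 5 and 62.4% on Endo day 5. On SMADi day 1, 13 of 14 genes of the Hsp90 family and its co-chaperones rose and 0 fell (median 0.66), with FKBP4, an Hsp90-binding immunophilin, at 1.03. TRiC and prefoldin, which fold and deliver cytoskeletal proteins, had 11 of 14 higher and 0 lower (median 0.48). The ER chaperones had 15 of 16 higher and 0 lower (median 0.70), with HSPA5, the ER Hsp70, at 1.12. Among J-domain partners of Hsp70, 9 of 14 rose and 1 fell, and DNAJA1 rose by 1.82 ± 0.10. Small heat shock proteins other than HSPB1 had 0 higher and 3 lower of 8 (median -0.99), including HSPB8 at -1.21, the partner of BAG3 in autophagy. Targets of the integrated stress response had 0 higher and 10 lower of 14 (median -0.79). By Endo day 5 all 16 ER chaperones were higher than at day 0, with a median of 1.98, against -0.05 over all tested genes, and MANF and PDIA4 were higher by 2.86 and 2.71. Under SMADi day 5, 9 of 16 ER chaperones were lower and 1 higher (median -0.19). The 51.5% of all genes called there counts both directions, and the share called as lower is not given here.

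Across the 48 group means, the 10 genes did not move as one block. Pearson's r of log2 CPM was 0.95 for HSPD1 with HSPE1, 0.83 for HSPB1 with BAG3, 0.81 for HSPA8 with HSPH1 and 0.79 for HSP90AA1 with each of HSPA8 and HSPH1. Of 45 pairs, 14 had r above 0.5 and 12 were below 0, the lowest being HSPA1A with HSPD1 at -0.45, and the median was 0.27. HSPB1 correlated with the mean of the other 9 genes at 0.11, HSPA1A at 0.11 and HSPA1B at 0.76. The genes outside the lists most like the mean of the 10 were HNRNPF, RARS1, NMT1, MRPS7 and UPF1, with r from 0.81 to 0.82, and SMARCE1 was most like HSPA1A, with r of 0.68. These are descriptions over groups that share their day 0 cells, lines and protocols, so no p is given.

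**Figure D2:**
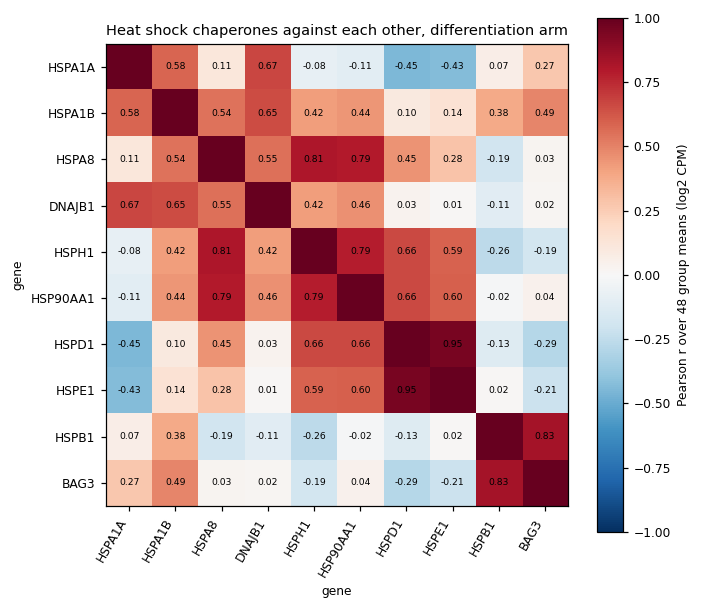
Pearson's r between the 10 chaperone genes over the 48 group means of log2 CPM in the differentiation arm, from -1 (blue) to 1 (red). HSPD1 and HSPE1 (0.95), HSPB1 and BAG3 (0.83), and HSPA8, HSPH1 and HSP90AA1 (0.79 to 0.81) form separate blocks.

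KO and ΔATG were compared with WT to see which genes the edits of lncPRESS1 changed before and during differentiation. At day 0 the inducible Hsp70 genes were higher in KO and lower in ΔATG. HSPA1A stood at 66.6 and 102 CPM in KO, 67.1 and 34.4 in WT and 27.8 and 35.3 in ΔATG. HSPA1B stood at 83.2 and 105 CPM in KO, 72.2 and 33.0 in WT and 34.3 and 34.4 in ΔATG. KO and ΔATG did not overlap. WT library b lay at the ΔATG level for both genes, and WT library a at the KO level for HSPA1A and between the lines for HSPA1B. By the test KO had 3 higher genes and 0 lower (3.57% of all genes called): HSPA1B by 0.84 ± 0.16 (adjusted p = 0.000818), HSPA1A by 0.73 ± 0.16 (adjusted p = 0.00444) and DNAJB1 by 0.33 ± 0.088 (adjusted p = 0.0201). ΔATG had 0 higher and 4 lower (3.91% of all genes called): HSPA8 by 0.79, HSPA1A by 0.69, HSPA1B by 0.62 and HSPE1 by 0.36. HSPA8 was at 379 and 456 CPM in ΔATG against 887 and 558 in WT, without overlap.

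The day 0 calls rest on single libraries. Leaving out KO library b took the KO count to 0, and leaving out KO library a took it to 7, 4 higher and 3 lower. Without WT library b, KO had 0 higher and 4 lower genes: the calls of HSPA1A, HSPA1B and DNAJB1 were lost (0.33, 0.38 and 0.10), and HSPH1 (-0.59), HSPA8 (-0.58), HSP90AA1 (-0.45) and HSPD1 (-0.34) were lower. For ΔATG, 0 genes passed when WT library a was left out and 9 when b was, and without WT library a the difference of HSPA1B in ΔATG was 0.06. Without ΔATG library a, 2 genes were lower, HSPA8 and HSP90AA1. Over all genes, libraries of the same letter deviated together at day 0, whereas HSPA1A and HSPA8 were higher in a than in b in WT and lower in a in KO and ΔATG. With the letter as a block the KO count was 6, with HSPH1, HSP90AA1 and HSPD1 lower as well, and the ΔATG count 6, with HSP90AA1 and HSPD1 added. With a fit of the compared libraries alone no gene was called in either line. Between the edited lines, where WT plays no part, ΔATG was below KO for 5 genes at day 0 (2.82% of all genes called), HSPA1B by 1.46 ± 0.16, HSPA1A by 1.42 ± 0.17, DNAJB1 by 0.57, HSPA8 by 0.50 and HSPE1 by 0.36. None of the alternatives was run on this comparison, so how far it rests on single libraries was not tested. The KO libraries themselves were unequal, with HSPA1A at 66.6 and 102 CPM.

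During SMADi more chaperone genes were lower than higher in each edited line. Over days 1 to 5, KO had 0 higher and 7 lower genes (46.5% of all genes called, 25.4% as lower), and ΔATG 2 higher and 5 lower (45.7%). HSPB1 had the largest difference, -0.48 ± 0.055 in KO (adjusted p = 8.93e-11) and -0.49 ± 0.055 in ΔATG (adjusted p = 4.77e-11). On SMADi day 3 HSPB1 stood at 136 and 134 CPM in WT, 70.3 and 71.4 in KO and 72.1 and 72.2 in ΔATG. Both libraries of each edited line were below both WT libraries on 5 of 5 days. HSPA8, DNAJB1 and HSPH1, not called in KO over the 5 days, also had 0 overlapping days there, but in both directions. For no comparison of a line or construct was it counted how often all tested genes lacked overlap. Lack of overlap, here and elsewhere, therefore adds no support beyond the calls. HSPA1B, at 161 and 170 CPM on day 1 in WT, was at 115 and 109 in KO and 99.2 and 105 in ΔATG, and its difference over the 5 days was -0.46 ± 0.072 and -0.37 ± 0.072. The mitochondrial pair was lower in both lines, HSPD1 by 0.30 in KO and 0.24 in ΔATG and HSPE1 by 0.34 and 0.28. HSPD1 lay below WT without overlap on 5 of 5 days in each line. HSPA1A was lower by 0.26 and 0.30, and taken singly on days 1 and 5. Without day 1 it missed the threshold in both lines, at -0.15 (adjusted p = 0.12) and -0.19 (adjusted p = 0.0531), and in KO so did HSP90AA1 and BAG3, while HSPH1 was higher in KO by 0.19.

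HSPA8 and HSPH1 behaved differently from these. They were higher in ΔATG, by 0.16 ± 0.054 and 0.13 ± 0.052, and taken singly HSPA8 was higher on days 2 and 3 and HSPH1 on day 3. On SMADi day 3 HSPA8 stood at 1223 and 1129 CPM in WT, 1504 and 1535 in KO and 1560 and 1606 in ΔATG. HSPH1 stood at 85.6 and 91.4 CPM in WT, 116 and 117 in KO and 118 and 128 in ΔATG. All 4 libraries of the edited lines were above WT for both genes on that day. On day 1 HSPH1 had been lower in ΔATG, by 0.37, so its difference from WT changed sign. Over the 5 days HSPH1 kept its ΔATG call in 24 of 27 alternatives. For HSPA8 both ΔATG libraries were below both WT libraries on 2 days and above them on 2. Both KO libraries were below WT for HSPA8 on 3 days and above on 2. The difference of the line from WT depended on the day for 7 genes in KO (32.1% of all genes called) and 8 in ΔATG (29.4%), by a joint test of the 5 days. No chaperone gene was called between ΔATG and KO under SMADi by edgeR (1.26% of all genes called), and 0 of 10 had an unadjusted p under 0.05. The largest of these differences was that of HSPA8, 0.09 ± 0.054.

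Cell type markers moved with these differences. Over SMADi, 2 of 3 stem cell markers were lower and 3 of 4 neuroectoderm markers higher in each edited line. The stem cell sum was 774 to 1756 CPM in WT, 668 to 1295 in KO and 725 to 1330 in ΔATG, and the neuroectoderm sum reached 470, 1127 and 1023 CPM. Their part in the chaperone differences was not tested.

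Under BMP4, averaged over days 1 to 5, BAG3 had the largest difference from WT in each line. It stood at 63.3 and 61.3 CPM in WT on day 5, 36.7 and 37.8 in KO and 56.5 and 42.2 in ΔATG. Both KO libraries were below both WT libraries on 5 of 5 days, and so were the ΔATG libraries. Over the 5 days KO was lower by 0.49 ± 0.044 (adjusted p = 1.33e-13) and ΔATG by 0.29 ± 0.044 (adjusted p = 6.7e-07), and ΔATG was above KO by 0.20 ± 0.044. With HSPA8 it was 1 of 2 genes called between the edited lines, both higher in ΔATG (12.5% of all genes called). Over the 5 days BAG3 was the only chaperone gene called in KO (27.6% of all genes called). ΔATG had 1 more, HSPA8, higher by 0.17 ± 0.054 (15.7% of all genes called). Taken singly, KO had 1 higher and 1 lower gene on day 2 and 2 lower genes on day 5. The shares of all genes called on these single days are not given here. Mesoderm markers were lower in both lines, 4 of 4 in each, with a sum of 135 to 381 CPM in WT, 52.4 to 118 in KO and 54.2 to 236 in ΔATG, and their part in the BAG3 difference was not tested.

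Under Endo, HSP90AA1 and HSPA1A were lower in both lines. HSP90AA1 at day 5 stood at 1747 and 1623 CPM in WT, 1312 and 1315 in KO and 1096 and 1060 in ΔATG, an order without overlap. It was below WT on 5 of 5 days in each line, by 0.23 ± 0.045 in KO (adjusted p = 0.00014) and 0.45 ± 0.046 in ΔATG (adjusted p = 6.14e-12), and lower in ΔATG than in KO by 0.22. Between the edited lines 2 genes were higher in ΔATG, HSPD1 and HSPE1, and 3 lower, HSP90AA1, HSPB1 and BAG3 (18.9% of all genes called). HSPA1A on day 1 stood at 133 and 86.3 CPM in WT, 86.1 and 85.0 in KO and 46.7 and 50 in ΔATG, and was lower over the 5 days by 0.32 and 0.43. HSPA1A and HSP90AA1 kept their KO calls in all 27 alternatives run, including those without WT library a of day 1 and without day 1. The other called genes in KO, HSPA1B (-0.21) and DNAJB1 (-0.11), kept theirs in 10 and 12 of 27. In ΔATG DNAJB1 was -0.14, and -0.03 (adjusted p = 0.689) without day 1. BAG3 on day 2 stood at 91.5 and 104 CPM in WT, 78.3 and 77.7 in KO and 46.2 and 46.0 in ΔATG. That day it was lower in ΔATG by 1.09 ± 0.099, whereas on day 4 the ΔATG libraries, at 87.8 and 87.5, were above the WT ones at 75.3 and 80.4. HSPB1 was lower in ΔATG by 0.26, on 5 of 5 days, and HSPD1 higher by 0.10. In all, KO had 0 higher and 4 lower genes (15.5% of all genes called) and ΔATG 1 higher and 5 lower (34.7%).

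Endoderm markers, with a sum of 1781 to 13760 CPM in WT, were at 1952 to 13231 in KO and 1031 to 9106 in ΔATG. Of the 4 markers, 0 were called in KO and 2 were lower in ΔATG, where 3 of 3 stem cell markers were higher. Their part in the chaperone values was not tested.

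The differences from WT varied with protocol and day. Joint tests of the interaction called 7 of the 10 genes in KO (48% of all genes) and 8 in ΔATG (49.1%) between protocols. Between the days of Endo they called BAG3 alone in KO (2.79%) and 6 genes in ΔATG (15.7%): HSPA1A, HSPA1B, HSPA8, DNAJB1, HSPH1 and BAG3. Between the days of BMP4 edgeR called 0 genes in each line (8.42% in KO and 1.63% in ΔATG), with 4 and 0 genes at an unadjusted p under 0.05.

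**Figure D3:**
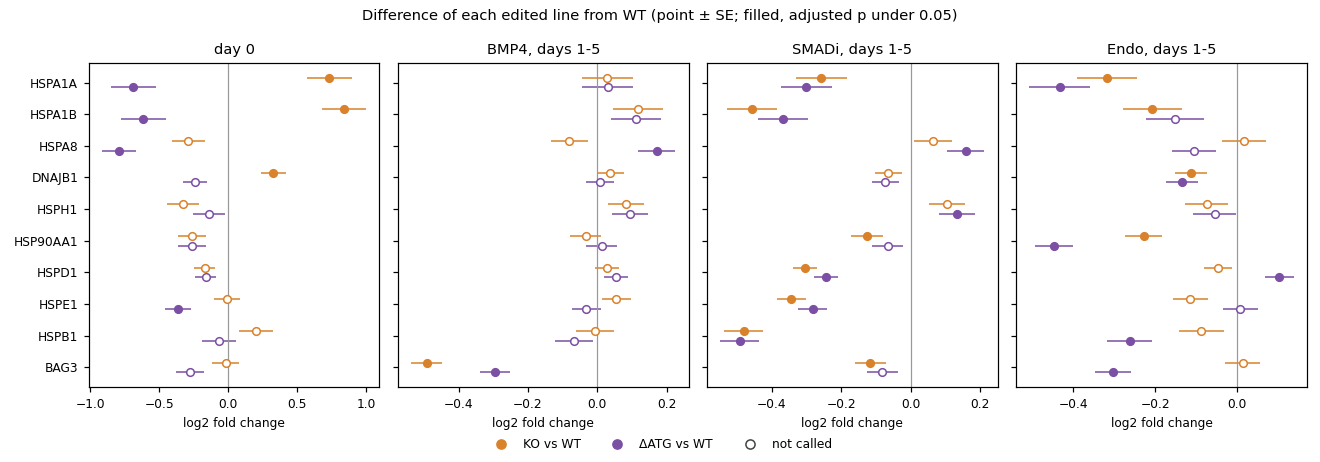
Log2 fold change from WT (point, with its standard error) for the 10 chaperone genes in KO (orange) and ΔATG (purple) at day 0 and over days 1 to 5 of each protocol; filled points have an adjusted p under 0.05, and the axis range differs between panels. HSPB1 under SMADi (-0.48 and -0.49), BAG3 under BMP4 (-0.49 and -0.29) and HSP90AA1 under Endo (-0.23 and -0.45) lie to the left in both lines.

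**Figure D4:**
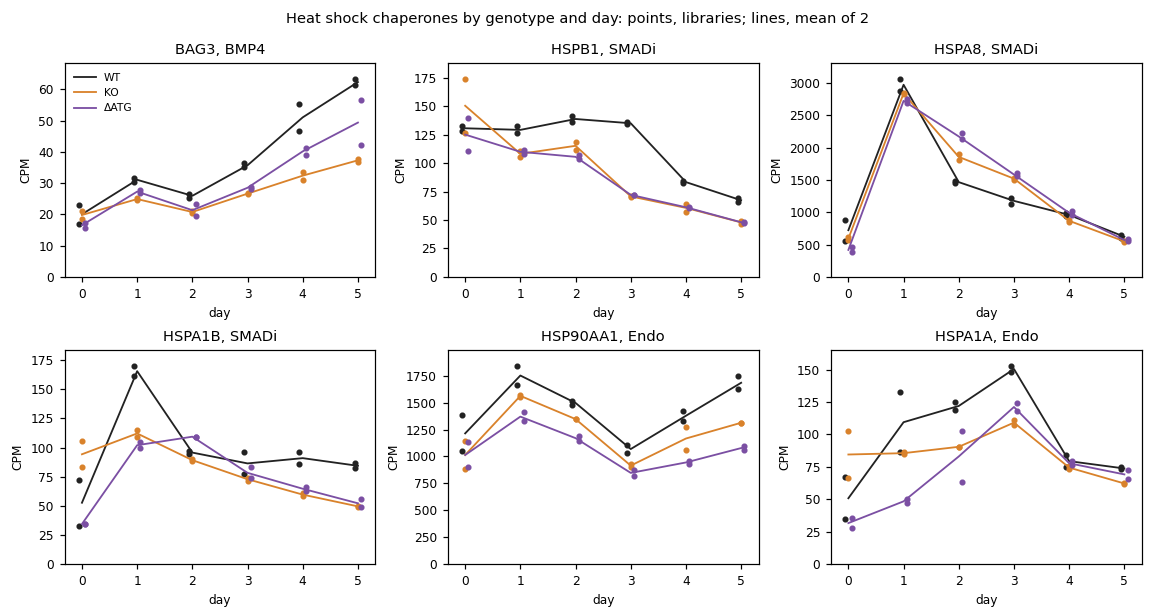
CPM (linear axis from 0) by day for 6 pairs of gene and protocol in WT (black), KO (orange) and ΔATG (purple), with points for libraries and lines through the mean of 2. BAG3 under BMP4, HSPB1 under SMADi and HSP90AA1 under Endo lie below WT on all 5 days in both edited lines, and HSPA8 under SMADi lies above WT on days 2 and 3.

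Members of the wider proteostasis lists also differed from WT under SMADi, where 46.5% of all genes were called in KO. In KO, mitochondrial proteostasis had 1 higher and 9 lower of 14 (median -0.22), with AFG3L2, an inner membrane protease subunit, at -0.54. TRiC and prefoldin had 0 higher and 8 lower of 14 (median -0.11), and the Hsp70 family outside the 10 genes 0 higher and 6 lower of 9 (median -0.26), while the median over all tested genes was -0.01. HSPB8 was lower by 3.21 in KO and 2.82 in ΔATG, and BAG2, an Hsp70 exchange factor, by 1.10 and 0.85. J-domain proteins went both ways, with 6 higher and 4 lower of 14 in KO. In KO under BMP4, where 27.6% of all genes were called, the ER chaperones had 0 higher and 13 lower of 16 (median -0.25), with HSPA5 at -0.41. In ΔATG under Endo, where 34.7% were called, they had 0 higher and 14 lower of 16 (median -0.24).

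In the overexpression arm the late stage is given first, since its libraries kept their stem cell markers. HSPA8, HSPA1A, HSPA1B and DNAJB1 were higher there in the libraries labelled lncPRESS1 than with the vector. HSPA8 stood at 731 and 1183 CPM with the vector, 2001 and 2671 in the libraries labelled lncPRESS1, 2549 and 2737 in those labelled lncPRESS1DATG and 2226 and 2264 in those labelled lncSIRP. All 6 construct libraries were above both vector libraries. The log2 differences were 1.29 ± 0.37, 1.47 ± 0.37 and 1.23 ± 0.36 (adjusted p = 0.0237, 0.0123 and 0.0297). HSPA1A stood at 31.6 and 56.4 CPM with the vector, 123 and 136 with lncPRESS1, 82.5 and 93.7 with lncPRESS1DATG and 124 and 158 with lncSIRP. Its differences of 1.56 and 1.68 with the labels lncPRESS1 and lncSIRP passed the test (adjusted p = 0.0101 and 0.00741), and that of 1.00 with lncPRESS1DATG did not, although its libraries did not overlap those of the vector. DNAJB1 rose with all 3 constructs, by 0.79, 0.66 and 0.85, from 45.9 and 55.6 CPM. HSPA1B rose with the labels lncPRESS1 and lncSIRP, by 1.21 and 1.29, and HSPH1 with lncSIRP, by 0.63.

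Counted together at the late stage, 4 genes were higher with the label lncPRESS1 (21.3% of all 23300 tested genes called), 2 with lncPRESS1DATG (19.8%) and 5 with lncSIRP (20.5%), and 0 were lower. The 3 constructs share the vector libraries, of which a was below b for 10 of 10 genes, at 0.549 to 0.964 of its level. LNCPRESS1 stood at 153 and 151 CPM with the label lncPRESS1, 154 and 156 with lncPRESS1DATG, 34.9 and 35.9 with lncSIRP and 32.9 and 32.6 with the vector. Its part in the chaperone levels was not tested. The stem cell sum was 2395 to 3214 CPM with the constructs and 2758 to 2821 with the vector at this stage, and amnion and trophoblast markers were at 2.57 CPM or less. The mesoderm sum was 46.4 to 113 CPM with lncPRESS1 and lncSIRP, 26.8 to 31.7 with the vector and 1.79 to 1.89 with lncPRESS1DATG, and the part of these markers in the chaperone levels was not tested.

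At the middle stage the differences with the labels lncPRESS1 and lncSIRP were larger and came with another cell identity. LNCPRESS1 stood there at 55.1 and 58.6 CPM with lncPRESS1, 13.7 and 13.3 with lncSIRP and 47.8 and 36.3 with the vector. With lncPRESS1DATG it stood at 87.8 and 133 CPM. HSPA8 stood at 1843 and 1845 CPM with lncPRESS1, 1978 and 2024 with lncSIRP and 388 and 569 with the vector. BAG3 stood at 87.0 and 88.4, 83.2 and 86.5, and 26.0 and 25.0 CPM, log2 differences of 1.78 and 1.73. HSPA1A rose by 2.54 and 2.50 and HSPH1 by 1.07 and 1.17, whereas HSPD1 fell by 0.60 and 0.55. The same 4 libraries had SOX2 at 3.28 to 5.42 CPM against 254 to 256 with the vector, HAND1 at 333 to 474, an amnion and trophoblast sum of 243 to 353 against 1.82 to 2.22 and COL1A1 at 1903 to 2704. The part of these markers in the chaperone levels was not tested. The middle libraries labelled lncPRESS1DATG kept a stem cell sum of 2144 to 2334 CPM but differed from each other, with HSPA8 at 937 and 325 and HSPA1A at 22.2 and 7.17 CPM, and by edgeR 0 of the 10 genes were called there (5.43% of all genes called), with 0 at an unadjusted p under 0.05. With lncPRESS1 57.4% and with lncSIRP 59.3% of all genes were called at this stage.

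At the early stage 0 of the 10 genes were called by edgeR with the label lncPRESS1 (0.275% of all genes called), and 1, HSP90AA1, had an unadjusted p under 0.05. HSP90AA1 was lower with lncPRESS1DATG, at 930 and 1092 CPM against 1665 and 1675 with the vector (-0.72 ± 0.11), and with lncSIRP, at 1230 and 1151 CPM (-0.49 ± 0.11). HSPD1 was lower with lncPRESS1DATG by 0.32. These were 2 called genes with lncPRESS1DATG (23% of all genes called) and 1 with lncSIRP (8.79%). Library a of early lncPRESS1DATG is marked as a redo in its label, and it had HSPH1 at 52.6 CPM against 97.8 in library b and HSPB1 at 192 against 130. The early libraries labelled lncSIRP were those whose LNCPRESS1 level went against their label.

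**Figure D5:**
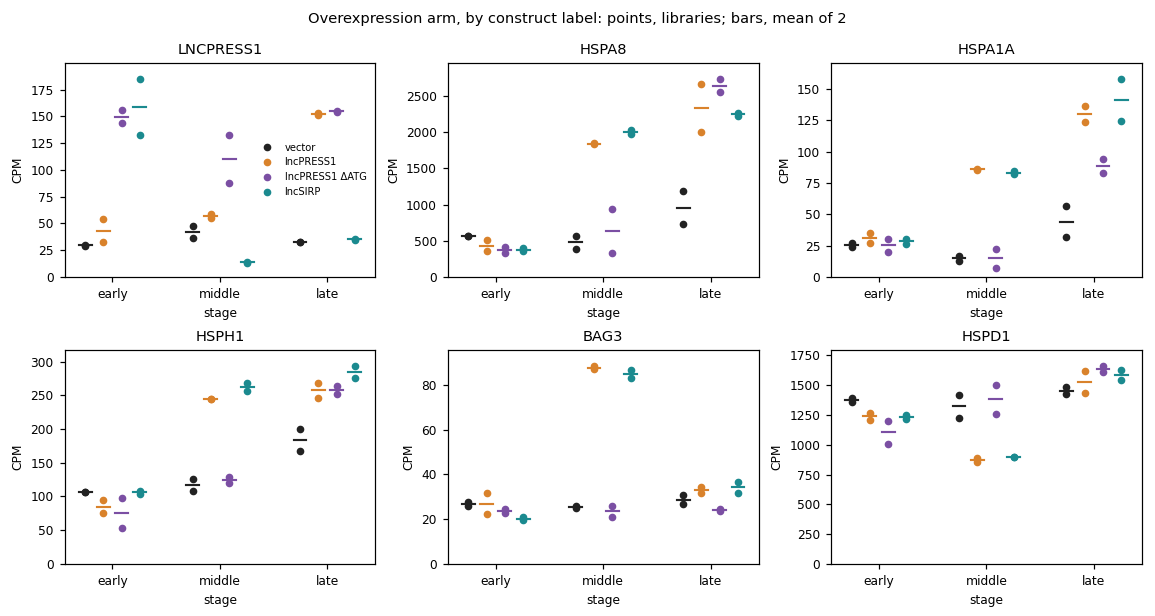
CPM (linear axis from 0) of LNCPRESS1 and 5 chaperone genes by stage and construct label, with points for libraries and bars for the mean of 2. HSPA8 and HSPA1A are above the vector with all 3 constructs at the late stage, and BAG3 and HSPD1 part from the vector in the middle libraries labelled lncPRESS1 and lncSIRP.

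Averaged over the 3 stages, the libraries labelled lncPRESS1 had 7 higher and 1 lower chaperone genes (45.8% of all genes called) and those labelled lncSIRP also 7 and 1 (49.9%), whereas lncPRESS1DATG had 1 and 1 (24.2%), DNAJB1 higher by 0.22 and HSP90AA1 lower by 0.19. HSPA1A was higher by 1.46 ± 0.22 with lncPRESS1 and 1.44 ± 0.22 with lncSIRP. The difference from the vector depended on the stage for 7 genes with lncPRESS1 (47.5% of all genes called), 5 with lncPRESS1DATG (14.2%) and 7 with lncSIRP (47.6%). Without the middle stage the counts were 3 and 3. HSPA1A, HSPA1B and DNAJB1 stayed called with both labels, while HSPA8 was 0.45 (adjusted p = 0.252) and 0.33 (adjusted p = 0.378). Between the labels lncSIRP and lncPRESS1 0 chaperone genes were called by edgeR (0.103% of all genes called), with 0 at an unadjusted p under 0.05. The averages of both labels include the early libraries, whose LNCPRESS1 levels went against these labels. Opposite differences at single stages could therefore offset each other, and the 2 labels were not compared stage by stage. ER chaperones followed the same pattern over the 3 stages, with 14 of 16 higher and 0 lower for each of these 2 labels (medians 0.49 and 0.46), and 2 higher and 3 lower with lncPRESS1DATG. At the late stage alone the ER list had 4 higher and 1 lower of 16 with lncPRESS1. Targets of the integrated stress response were lower there with every construct, 11, 12 and 11 of 14, with 0 higher.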

How the data were processed

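Gene-level estimated counts were deposited by the authors as 1 table of 120 libraries, aligned to GRCh38 per the submitters' processing notes; which aligner, counting tool and gene models they used is not given in the sources used here. Per the labels' protocols the libraries were stranded and made from polyA RNA. The deposited counts are named as length-scaled, and how that scaling was done is not stated. They were rounded. Each arm was fitted in R 4.3.3 with edgeR 4.0.16: library sizes scaled by TMM, filterByExpr by group, 1 mean per group, trended dispersion and robust quasi-likelihood F tests, two-sided, with Benjamini-Hochberg adjustment over the 25821 and 23300 tested genes. Residual degrees of freedom were 48 and 12. CPM use TMM-scaled totals, and correlations use log2 CPM with a prior count of 2. Each library held at least 38298440 counts, and the size of counting error beside the spread between libraries was not tested. With 2 libraries a group that spread is pooled over all groups of an arm.

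The 10 genes were named in every comparison; from each of 12 other gene lists, counts and at most the 2 highest and 2 deepest called genes were available for naming. The genes and lists were chosen with earlier results of these data known, so they are no independent evidence. Letters a and b were checked for pairing: deviations from group means correlated above 0.1 in 3 of 3 pairs of lines at day 0, in 11 of 15 under BMP4 and in 0 of 15, 0 of 15 and 0 of 18 under SMADi, Endo and overexpression. Alternatives were limma-voom 3.58.1, DESeq2 1.42.0, DESeq2-type size factors, no filter, only the libraries compared, a letter block and leaving out each library, the last with the dispersion trend of the full fit. Leaving out a stage or day 1 was chosen after seeing the data. The procedure was tested on simulated counts. Sequences are from RefSeq.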

Additional observations from a re-analysis of the deposited data

Results flagged for a closer look

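The differences of the edited lines from WT were compared between days and protocols by joint tests of the interaction (edgeR, Benjamini-Hochberg over all genes). The difference of KO depended on the protocol for 7 of the 10 chaperone genes, where 48% of all genes were called: BAG3 (adjusted p = 1.74e-09), HSPD1 (1.47e-07), HSPE1 (5.85e-07), HSPB1 (1.05e-06), HSPA1B (1.67e-05), HSPA1A (0.00858) and HSP90AA1 (0.032). BAG3 was lower in KO by 0.49 under BMP4 and by 0.12 under SMADi, and 0.01 higher, not called, under Endo. The difference of ΔATG depended on the protocol for 8 genes (49.1% of all genes): HSPD1 (2.14e-08), HSP90AA1 (2.3e-08), HSPB1 (3.24e-05), HSPE1 (6.48e-05), HSPA1B (0.000335), HSPA1A (0.000481), HSPA8 (0.00192) and BAG3 (0.00294). HSPD1 was lower in ΔATG by 0.24 under SMADi and higher by 0.10 under Endo.

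Between days, the difference from WT changed for 7 genes in KO and 8 in ΔATG under SMADi, and for 1 gene in KO, BAG3, and 6 in ΔATG under Endo (2.79% and 15.7% of all genes). Under BMP4 it changed for 0 genes in each line by edgeR, where 8.42% and 1.63% of all genes were called; at an unadjusted p under 0.05, 4 genes passed in KO (BAG3, HSPA8, HSPH1 and HSPA1B) and 0 in ΔATG, and no other tool was run on it. Between stages of overexpression, the difference from the vector changed for 7 genes with the label lncPRESS1 (47.5% of all genes), 5 with lncPRESS1DATG (14.2%) and 7 with lncSIRP (47.6%), the middle libraries labelled lncPRESS1 and lncSIRP being those without stem cell markers.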

How the results depend on the processing

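With only the compared libraries in the fit, the count of chaperone genes called fell to 0 for KO at day 0, 0 for ΔATG at day 0, 1 for ΔATG under BMP4, 4 for WT day 5 under BMP4 and 0 for lncPRESS1DATG, with fewer libraries to estimate the spread. For ΔATG at day 0 that fit called 3 of all tested genes. For lncPRESS1DATG, called for 2 genes in the report, the count was also 1 with DESeq2-type size factors, 4 without the filter on low counts and 1 with the letter as a replicate block. The block gave 6 for KO at day 0 and moved no count other than these 2 by over 1.5 times. Chosen after seeing the data, leaving out day 1 gave 2 for KO under Endo, and leaving out the middle stage gave 3 for lncPRESS1 and 3 for lncSIRP. Leaving out each library in turn gave 0 to 7 for KO and 0 to 9 for ΔATG at day 0. For WT at day 5 it gave 6 to 7 under BMP4, 6 to 9 under SMADi and 8 to 10 under Endo. For KO it gave 1 to 2, 6 to 7 and 2 to 5 under BMP4, SMADi and Endo, and for ΔATG 1 to 3, 6 to 7 and 6 to 8. For lncPRESS1, lncPRESS1DATG and lncSIRP it gave 7 to 8, 0 to 3 and 7 to 8. The direction reversed for HSPA1B in ΔATG at day 0 without WT library a (0.0554; leaving out each library gave -1.07 to 0.0554), for BAG3 with lncSIRP without the middle stage (-0.0762), and without the early stage for HSP90AA1 with lncPRESS1DATG (0.0797) and lncSIRP (0.199, adjusted p = 0.0391); the cause was not tested. Over the 140 results of single genes, 138 kept direction and side of the threshold with DESeq2, 138 with limma-voom, 137 with DESeq2-type size factors, 131 without the filter, 126 with the block and 113 with only the compared libraries (18 lost and 9 gained the threshold). All 10 genes were above 7 CPM in every library, and whether depth or the number of libraries limits their calls was not tested.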

Other observations

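HSP90AB1, the constitutive cytosolic Hsp90 beside the inducible HSP90AA1, was lower by 0.90 on the log2 scale at Endo day 5 than at day 0 in WT cells, where HSP90AA1 was higher by 0.47. HSPA2, an Hsp70 best known from the testis, was lower at day 5, with log2 differences of -2.31 under SMADi and -3.93 under Endo, and so was the small heat shock gene CRYAB under Endo, at -4.86. DNAJB2, a J-domain protein, was higher by 2.34 and SIL1, an exchange factor of the ER Hsp70, by 2.82 under Endo. In KO, the J-domain gene DNAJA4 was higher by 1.26 under BMP4 and 0.56 under Endo and lower by 0.35 under SMADi, and in ΔATG it was lower by 1.03 under SMADi.

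p53 targets were lower in ΔATG than in WT under BMP4, 0 higher and 12 lower of 14 (15.7% of all genes called), with a median of -0.45. In KO under BMP4 they had 0 higher and 5 lower of 14, where 27.6% of all genes were called in either direction. At day 0 ΔATG had 0 higher and 7 lower of them (3.91% of all genes called), and these day 0 libraries differ between letters as described above.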
